A study of Saccharomyces cerevisiae with 6 samples.

Results

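Purine synthesis in the budding yeast Saccharomyces cerevisiae is described here through 9 ADE genes, ADE1, ADE2, ADE4, ADE6, ADE8, ADE12, ADE13, ADE16 and ADE17, followed across 3 strain comparisons. The genes were taken by their symbols in the annotation of the membrane, where each stood on 1 spot, and are 9 of 5490 gene symbols measured on 6084 spots. They were chosen by membership in the pathway and with the log ratios of all 3 comparisons already known, so every ratio counts as used in the choice. The values of single ADE genes are therefore a description, and no p-value is given for them. ADE2 can also serve as a strain marker in yeast, and the labels do not give its allele in these strains.

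The strains were CM3260 (wt), Y18 (aft1) and Y18aft2delta (aft1aft2), all labelled minus iron, so that the aft1 mutation of Y18 is shared by both mutants and iron depletion by all 3 strains. Under low iron, the transcription factors Aft1 and Aft2 induce genes of iron uptake. Total RNA from exponentially growing cultures was copied and hybridised to nylon GeneFilters membranes carrying spots of yeast DNA. Each comparison was made in experiments 1 and 2, which gives 6 samples. The alleles, the markers used to build them, the number of independent clones and the adenine content of the medium were not stated in the labels.

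The pathway builds the purine ring stepwise on phosphoribosyl pyrophosphate (PRPP) until inosine monophosphate (IMP) is reached, from which AMP and GMP are made. It consumes glycine and formyl groups carried by folate, so it depends on serine and glycine metabolism. In yeast the transcription factors Bas1 and Pho2 together activate most ADE genes when adenine is scarce, and several genes of glycine and folate metabolism belong to the same set of Bas1 targets.

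The deposited log ratios are read here as log2, because the base was not stated, and each column was centred on its median. Values are mutant minus reference. This direction is likely rather than stated: it follows the order of strains in the titles and the low spots of FET3 and FIT2, known Aft1 targets, at -3.43 ± 0.25 (SE, n = 2) and -5.85 ± 0.24 in the aft1 strain. With the opposite order every sign below would turn. The spots of AFT1 and AFT2 did not check the labels. Relative to wt their means were 0.03 and -0.33 in the aft1 strain and -0.59 and 0.78 in aft1aft2. For AFT2 in aft1aft2 against wt the experiments disagreed in sign, at -0.40 and 1.95 (SE 0.54). The 3 ratios of an experiment closed on each other within 0.01, so the comparisons share hybridisations, 6 in all, and are not independent. The threshold is an adjusted p of 0.05 in 1 limma fit over all 6084 spots. Each SE is that of the limma fit. It pools a spot's spread over the 3 strains and draws it towards that of all spots. A gene therefore has the same SE in each comparison. Duplicates were not labelled as separate cultures, so the errors rest on the spread between the 2 experiments, and that spread may be technical.

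ADE17 was the ADE gene with the largest change. It encodes one of the pair of isozymes, with Ade16, that carry out the last steps to IMP, formyl transfer to AICAR and ring closure. In aft1aft2 against wt the ADE17 ratio was -2.87 in experiment 1 and -3.31 in experiment 2. Both values lay far below the typical spot, and the mean was -3.09 ± 0.26 (SE, n = 2), 8.51-fold lower. In aft1aft2 against aft1 the ratios were -3.70 and -4.29, with a mean of -3.99 ± 0.26, 15.9-fold lower. Only 1 of the 6084 spots, one without a gene name, had a lower mean in that comparison. In aft1 against wt ADE17 went the other way in both experiments, 0.83 and 0.98, without passing the threshold (mean 0.90 ± 0.26). RNA came from whole cultures, so fewer cells holding a transcript and less of it per cell cannot be told apart. ADE17 passed the threshold in both comparisons of aft1aft2 under all 12 alternative settings of the fit.

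**Figure D1:**
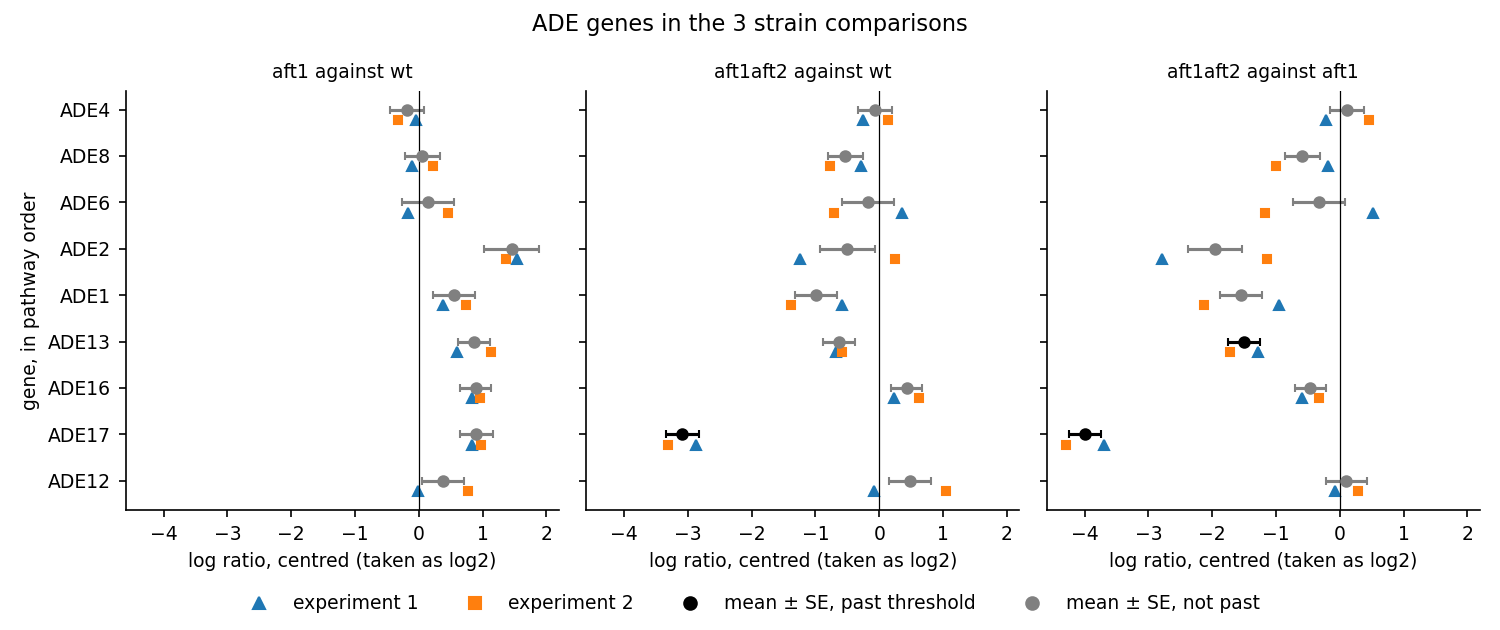
Centred log ratios (x axis, taken as log2, mutant minus reference) of the 9 ADE genes in pathway order, in 3 panels by comparison. Triangles and squares are experiments 1 and 2, circles the mean with its SE, black where the fit over all spots passed the threshold: ADE17 in both comparisons of aft1aft2 (-3.09 and -3.99) and ADE13 in aft1aft2 against aft1 (-1.50).

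The paralogue ADE16 did not show the low value of ADE17. In aft1aft2 against wt its ratios were 0.23 and 0.63 (mean 0.43 ± 0.24), and in aft1aft2 against aft1 they were -0.60 and -0.33 (mean -0.46 ± 0.24). In aft1 against wt both paralogues stood at nearly the same place, ADE16 at 0.83 and 0.96 with a mean of 0.89 ± 0.24. None of the 3 ADE16 means passed the threshold. The coding sequences of the pair are similar, and whether the spots read each other's transcript was not tested. In the R64 gene table ADE17 lies between ASI1 and RPL15B, whose means in aft1aft2 against aft1 were 0.46 ± 0.23 and 0.11 ± 0.24. ASI1 in aft1aft2 against wt was 0.40 ± 0.23, while RPL15B was -1.01 and -0.70 (mean -0.86 ± 0.24), below the typical spot in both experiments without passing the threshold.

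ADE13 was the other ADE gene past the threshold. Its product, adenylosuccinate lyase, acts both in making AICAR and in the branch to AMP. In aft1aft2 against aft1 its ratios were -1.28 and -1.73, and the gene fell, with a mean of -1.50 ± 0.25. Relative to wt they were 0.60 and 1.14 in aft1 (mean 0.87 ± 0.25) and, in the double mutant, -0.68 and -0.59 (mean -0.64 ± 0.25), neither past the threshold. The experiments agreed in sign in all 3 comparisons, and in each experiment aft1 had the highest and aft1aft2 the lowest value. The call in aft1aft2 against aft1 was absent with the values as deposited, and without aft1 replicate 1, aft1 replicate 2 or aft1aft2 replicate 2.

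ADE1 and ADE2, which encode consecutive enzymes and whose mutants accumulate a red pigment, were highest in aft1 in both experiments without passing the threshold in any comparison. ADE1, for SAICAR synthetase, had ratios of -0.96 and -2.13 in aft1aft2 against aft1 (mean -1.54 ± 0.33). Against wt ADE1 was 0.38 and 0.73 in aft1 (mean 0.56 ± 0.33), while aft1aft2 gave -0.58 and -1.39 (mean -0.99 ± 0.33). The experiments thus gave 1 sign each time but differed in size. ADE2, for AIR carboxylase, was 1.54 and 1.38 in aft1 against wt, a mean of 1.46 ± 0.43 and the highest of the 9 genes there. In aft1aft2 against aft1 ADE2 was -2.78 and -1.14 (mean -1.96 ± 0.43). In aft1aft2 against wt its experiments disagreed in sign, at -1.24 and 0.24 (mean -0.50 ± 0.43), so the order of wt and aft1aft2 was not settled for ADE2.

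The genes of the early steps and of the first AMP-branch enzyme had means between -0.59 and 0.48 over the 3 comparisons. ADE4 encodes the amidotransferase that commits PRPP to the pathway, and its 3 means were -0.18 ± 0.26, -0.06 ± 0.26 and 0.12 ± 0.26 in the 3 comparisons, taken in the order aft1 to wt, aft1aft2 to wt and aft1aft2 to aft1. ADE8, for the first formyl transfer, was 0.06 ± 0.28, -0.53 ± 0.28 and -0.59 ± 0.28 in the same order. ADE8 was lower in aft1aft2 in both experiments, at -0.18 and -0.99 against aft1. ADE6, for the glutamine-dependent step to FGAM, was 0.15 ± 0.41, -0.18 ± 0.41 and -0.33 ± 0.41. Its experiments disagreed in sign in every comparison, with 0.52 and -1.18 in aft1aft2 against aft1. ADE12, for adenylosuccinate synthase, was 0.38 ± 0.32, 0.48 ± 0.32 and 0.10 ± 0.32, and its experiments also disagreed in sign each time. None of these 4 genes passed the threshold in any comparison.

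**Figure D2:**
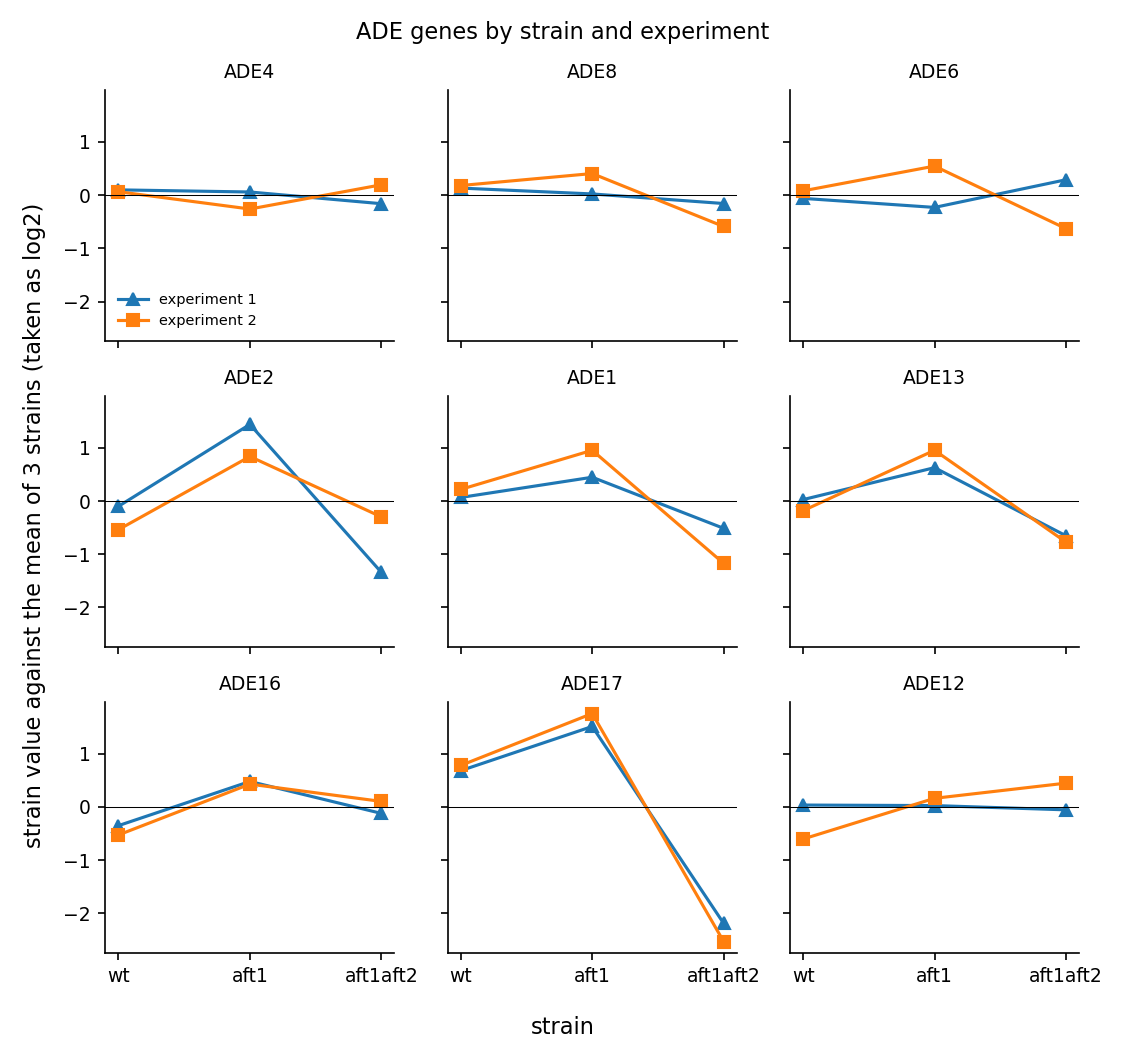
Strain values (y axis, relative to the mean of the 3 strains in the same experiment, taken as log2) of each ADE gene in wt, aft1 and aft1aft2, with 1 line per experiment. For ADE17 aft1aft2 lies at -2.19 and -2.53 and aft1 at 1.51 and 1.75. Because each line is relative to its own mean, the lines cross by construction, and nothing is read from a crossing.

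Expressed per strain, ADE17 stood at 0.68 and 0.78 in wt, 1.51 and 1.75 in aft1 and -2.19 and -2.53 in aft1aft2, relative to the mean of the 3 strains in each experiment. The strains did not overlap, but the share of all spots without overlap was not counted, so nothing is read from it here or below. ADE13 stood at 0.03 and -0.18 in wt, 0.63 and 0.95 in aft1 and -0.65 and -0.77 in aft1aft2, again with no overlap. ADE1 ran from 0.07 and 0.22 in wt to 0.45 and 0.95 in aft1 and -0.51 and -1.17 in aft1aft2, the same order without overlap. For ADE16, which passed the threshold in no comparison, the strains did not overlap either. There wt was lowest, at -0.35 and -0.53, and aft1 highest, at 0.48 and 0.43, with aft1aft2 between them at -0.12 and 0.10.

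Counted over the 9 genes, limma called 0 in aft1 against wt, where 1.46% of all spots passed the threshold. It called 1 in aft1aft2 against wt, lower, beside 3.71% of all spots called lower. It called 2 in aft1aft2 against aft1, both lower, beside 2.6% of all spots. At an unadjusted p under 0.05, 4 of the 9 were higher in the first comparison, 3 lower in the second and 4 lower in the third, beside 15.4%, 21.4% and 22.6% of all spots in either direction. The count of 2 in aft1aft2 against aft1 was 4 without wt replicate 1 or without wt replicate 2, with ADE1 and ADE2 added, and 1, ADE17, as deposited and without aft1 replicate 1 or aft1 replicate 2. ADE2 was called higher in aft1 against wt without aft1aft2 replicate 1 or aft1aft2 replicate 2, and ADE1 was called lower in aft1aft2 against wt without aft1aft2 replicate 1. With columns scaled, ADE1 was called as well in aft1aft2 against aft1. Which ADE genes were called there also changed when aft1aft2 replicate 1 or aft1aft2 replicate 2 was left out. All 3 contrasts were known when the genes were named, so nothing is read from the counts. The medians over the 9 genes were 0.56, -0.50 and -0.59 in the 3 comparisons, beside 0.01, 0.02 and 0.03 over all spots. In experiments 1 and 2 taken alone these medians were 0.38 and 0.77, -0.29 and -0.59, and -0.60 and -1.14. In aft1 against wt 5 of 9 genes were higher in both experiments and 1 was lower in both, where 32.8% and 32.7% of all spots were. In aft1aft2 against aft1 6 of 9 were lower in both and 0 higher in both, where 33.3% and 33.8% of all spots were. In aft1aft2 against wt 4 were lower in both and 1 higher in both, where 30.6% and 30.7% of all spots were. Without centring all means of a comparison move up alike, and the medians over all spots become 0.27, 0.54 and 0.28 in the 3 comparisons. The signs of ADE2, ADE4 and ADE6 in aft1aft2 against wt, and of ADE4 in aft1 against wt, then turn, while the 7 negative means of aft1aft2 against aft1 keep theirs.

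**Figure D3:**
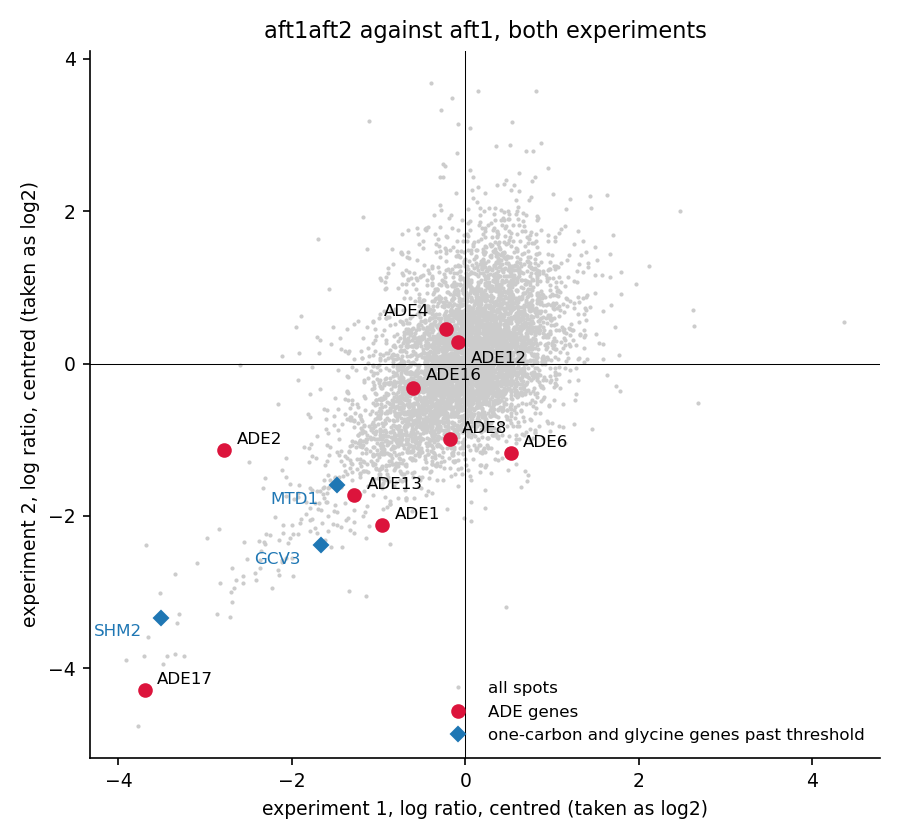
Centred log ratios of aft1aft2 against aft1 in experiment 1 (x axis) and experiment 2 (y axis), taken as log2, for all 6084 spots in grey. The 9 ADE genes are red circles, with ADE17 at -3.70 and -4.29, and the blue diamonds are SHM2, MTD1 and GCV3, which also lie low in both experiments.

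The other genes of purine metabolism were 45 genes in 8 lists, of which 43 had a spot, and ADE5,7 and IMD1 were not analysed here. Limma called 0 of the 43 genes for aft1 relative to wt. For aft1aft2 it called 2 relative to wt and 4 relative to aft1, all lower, beside 3.71% and 2.6% of all spots called lower. At an unadjusted p under 0.05, 7 were higher and 2 lower in aft1 against wt, 2 and 11 in the second comparison and 3 and 13 in the third, beside 15.4%, 21.4% and 22.6% of all spots in either direction. The medians over the 43 genes were 0.13, -0.40 and -0.45.

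In aft1aft2 against aft1 the lowest means of single genes were in the supply of glycine and folate-bound units. Of its 8 genes 3 were called lower there, beside 2.6% of all spots. As a list its median there was -0.53, while the histidine pathway had -0.67 and the GMP branch -0.55. The medians of the remaining lists were higher. Without a test, 6 of the 8 were lower in both experiments there and 0 higher in both, where 33.3% and 33.8% of all spots were. SHM2 encodes the cytosolic serine hydroxymethyltransferase, which makes glycine and loads folate. Its ratios were -3.51 and -3.34 in aft1aft2 against aft1, a mean of -3.42 ± 0.24 (SE, n = 2, limma adjusted p = 0.00317), 10.7-fold lower. In aft1aft2 against wt SHM2 was -2.47 and -2.13, a mean of -2.30 ± 0.24 (adjusted p = 0.00993), a call absent with the values as deposited. In aft1 against wt it was 1.04 and 1.21, which did not pass (mean 1.12 ± 0.24, adjusted p = 0.0864). By Euclidean distance over the 4 ratios of the mutants against wt, SHM2 was the named spot nearest to ADE17, at 1.28, followed by ECM33 at 1.57. That comparison with ADE17 was chosen after its values were seen. The list of 8 genes was also drawn up with earlier results of these data known, so its counts and p-values are a description.

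MTD1 and GCV3 followed in aft1aft2 against aft1. MTD1, for the cytosolic methylenetetrahydrofolate dehydrogenase, was -1.48 and -1.60 (mean -1.54 ± 0.23, limma adjusted p = 0.0261). GCV3, for the carrier protein of the glycine cleavage complex, was -1.67 and -2.39 (mean -2.03 ± 0.27, adjusted p = 0.0203). Neither passed against wt, where MTD1 was 1.14 ± 0.23 in aft1 and, in the double mutant, -0.40 ± 0.23, and GCV3 0.89 ± 0.27 and -1.14 ± 0.27. Both calls were absent with the values as deposited, and without aft1 replicate 1, aft1 replicate 2 or aft1aft2 replicate 2. The other genes of the glycine cleavage complex, GCV1 and GCV2, were -0.32 ± 0.24 and -0.42 ± 0.23 in aft1aft2 against aft1, and the mitochondrial SHM1 was -0.63 ± 0.31, none past the threshold. ADE3, whose trifunctional product supplies formyl folate in the cytosol, was -0.09 ± 0.36, -0.58 ± 0.36 and -0.49 ± 0.36 in the 3 comparisons, also not past it.

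**Figure D4:**
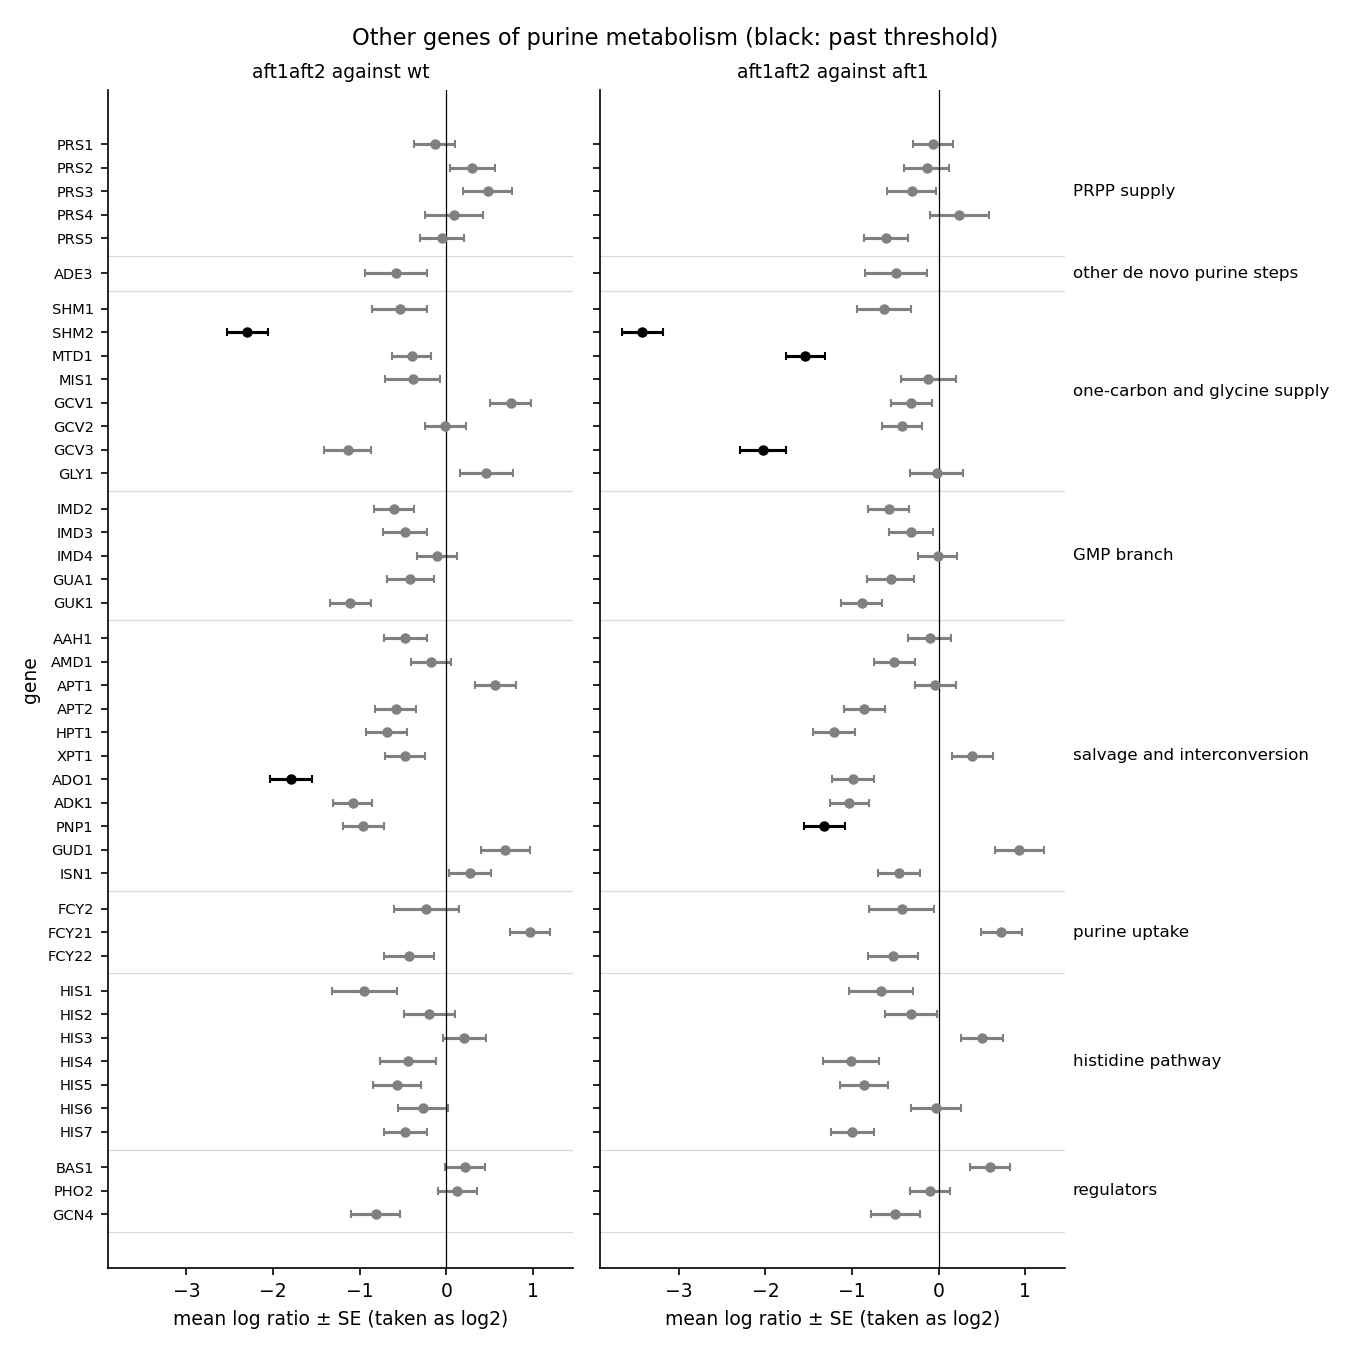
Mean log ratio with its SE (x axis, taken as log2) of 43 other genes of purine metabolism by list, in aft1aft2 against wt (left) and aft1aft2 against aft1 (right). Black points passed the threshold: SHM2 (-2.30) and ADO1 (-1.79) on the left, and SHM2 (-3.42), GCV3 (-2.03), MTD1 (-1.54) and PNP1 (-1.32) on the right.

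In salvage and interconversion 1 of 11 genes was called lower in each comparison of aft1aft2, beside 3.71% and 2.6% of all spots. Without a test, 8 were lower and 3 higher in both experiments against wt, where 30.6% and 30.7% of all spots were. Against aft1 7 were lower and 2 higher in both, where 33.3% and 33.8% of all spots were. ADO1, for adenosine kinase, was -1.85 and -1.74 in aft1aft2 against wt (mean -1.79 ± 0.24, limma adjusted p = 0.0201), a call absent as deposited and without wt replicate 2, aft1 replicate 1 or aft1 replicate 2. PNP1, for purine nucleoside phosphorylase, was -1.31 and -1.33 in aft1aft2 against aft1 (mean -1.32 ± 0.24, adjusted p = 0.0471). That call was absent as deposited, with quantile normalisation, and without aft1 replicate 1, aft1 replicate 2 or aft1aft2 replicate 2. XPT1, for xanthine phosphoribosyltransferase, was the farthest from 0 of this list in aft1 against wt, at -0.87 ± 0.24, and did not pass.

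No gene of the remaining lists passed the threshold in any comparison. Of the GMP branch, the guanylate kinase gene GUK1 was the farthest from 0 at -0.22 ± 0.24, -1.11 ± 0.24 and -0.89 ± 0.24 in the 3 comparisons. Of the PRPP synthetase genes PRS3 was 0.79 ± 0.28 for aft1 and 0.48 ± 0.28 for the double mutant, both relative to wt, and PRS5 -0.61 ± 0.25 in aft1aft2 against aft1. Of the purine permease genes FCY21 was the farthest from 0 at 0.24 ± 0.24, 0.96 ± 0.24 and 0.72 ± 0.24. The histidine pathway releases AICAR as a by-product, and its HIS4 stood at 0.57 ± 0.33 in aft1 against wt and -1.01 ± 0.33 in aft1aft2 against aft1, and HIS1 at -0.94 ± 0.37 in aft1aft2 against wt.

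The transcripts of the regulators had means between -0.81 and 0.60 over the 3 comparisons. BAS1 was -0.38 ± 0.23, 0.22 ± 0.23 and 0.60 ± 0.23 in the 3 comparisons, and PHO2 was 0.23 ± 0.23, 0.13 ± 0.23 and -0.10 ± 0.23. GCN4, whose product activates amino acid synthesis genes and several ADE genes, was -0.31 ± 0.28, -0.81 ± 0.28 and -0.50 ± 0.28. None of these passed, and a transcript level does not measure the activity of its factor. The markers of these strains were not stated, and 6 genes other than ADE2 that can serve as markers in yeast were listed. Of these LEU2 rose in aft1 against wt to 2.21 ± 0.28 (limma adjusted p = 0.0265) and fell in aft1aft2 against aft1 to -1.66 ± 0.28 (adjusted p = 0.0397). LEU2 in aft1aft2 against wt was 0.33 and 0.78 (mean 0.56 ± 0.28, not past the threshold). MET17 was 0.64 ± 0.28, -0.84 ± 0.28 and -1.48 ± 0.28 in the 3 comparisons, and TRP1 was 1.76 ± 0.31, 1.38 ± 0.31 and -0.38 ± 0.31, none past the threshold. URA3, LYS2 and HIS3 lay between -0.29 and 0.50 in all 3. Whether strain markers had a part in the ADE values was not tested.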

How the data were processed

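Per the labels, 5 µg of total RNA was reverse-transcribed, hybridised to GeneFilters membranes, exposed to a phosphor screen for 3 days and quantified with PATHWAYS 3. The authors deposited log ratios, 1 for each spot in each sample, which are read as log2 values. Their base, direction, membrane normalisation and spot intensities were not stated, so no filter on dim spots could be set. The table held 6084 spots without missing values, 5523 with 1 gene symbol and 561 with none. All 5523 matched the R64 gene table. No coordinates or sequences are printed, because no sequence table was used here.

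Ratios were centred on column medians and turned to mutant minus reference. Strain values of each experiment were rebuilt by least squares, and limma 3.58.1 (R 4.3.3) was fitted with terms for strain and experiment, which left 2 residual degrees of freedom, two-sided, with Benjamini-Hochberg adjustment over all spots. The fit was run on simulated data with normal noise drawn from its own variance model, which checks the calculation only. It does not test how the spots of these membranes vary. Experiment is a term because the ratios of 1 experiment close on each other within 0.01, which pairs the samples. Alternatives were no centring, column scaling, quantile normalisation, a robust prior, no replicate block, named spots only, and leaving out each hybridisation or experiment. The members, lists and alternatives were chosen with earlier results of these data known. Genes named are all 9 members, and of each other list those past the threshold and the farthest from 0 in each comparison. ADE3, the regulators, the possible strain markers and the genes used to check the labels are named too. Also named are the spots nearest in profile to the members' median. SHM1, GCV1, GCV2 and the neighbours of ADE17 were added after their values were seen.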

Additional observations from a re-analysis of the deposited data

How the results depend on the processing

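With the values as deposited, limma called 58 spots in aft1 against wt (44 higher and 14 lower, beside 51 and 38 with centring), 72 in aft1aft2 against wt (36 and 36, beside 44 and 226) and 52 in aft1aft2 against aft1. Scaling columns gave 217 calls in aft1 against wt (109 higher and 108 lower). Without the replicate block, treating the 6 ratios as independent samples, which overstates their number, the calls were 278, 477 and 399 against 89, 270 and 172 with it, and 0, 1 and 2 of the 9 ADE genes were called, as with it. Leaving out 1 hybridisation gave 4 to 233, 75 to 559 and 13 to 503 spots, and 0 to 1, 1 to 2 and 1 to 4 ADE genes. A strain left with 1 hybridisation is then assumed to vary like the others. As deposited, 1 ADE gene was called in aft1aft2 against aft1, and the median of the ADE genes in aft1aft2 against wt was 0.015 in place of -0.50, since all means move up alike. With a hybridisation or an experiment left out the ADE medians ranged from 0.28 to 0.85 in aft1 against wt, from -0.72 to -0.29 in aft1aft2 against wt, and from -1.14 to -0.50 in aft1aft2 against aft1. The cause of the other shifts was not tested. Precision is limited by 2 hybridisations per strain, and the signal over background is not known.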

Other observations

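By Euclidean distance over the 4 centred ratios of the mutants against wt, the 5 named spots nearest to the median profile of the 9 ADE genes were SOL3 at 0.19, SDS23 at 0.23, and MPM1, ALO1 and OYE2 at 0.24 each. SOL3, the nearest of them, had means of 0.61 for aft1 and -0.32 for aft1aft2, both relative to wt, and of -0.93 between the mutants. None of these 5 profiles lay as far from 0 as that of ADE17, whose nearest spots after SHM2 and ECM33 were ENO1 at 1.61, ENO2 at 1.62 and PMA1 at 1.94. The distance describes these membranes, with no test and no statement on function.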
